A study of Rattus norvegicus with 9 samples.

Results

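The transcripts described here encode the enzymes that turn glucose into pyruvate and lactate, feed pyruvate into mitochondria and run the tricarboxylic acid (TCA) cycle, with the malate-aspartate shuttle and creatine kinase and glycogen phosphorylase beside them. Genes were included where the array platform's gene symbol equalled a name on a list of 38. Of these, 33 genes had a probe, among 10327 genes with a tested named probe. Hk1, Pgam1, Pdha1, Fh and Ckmt1 had none under these names and were not analysed here. Each gene had 1 probe except Aldoa, whose 2 probes carried identical values on every array and count as 1 measurement.

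RNA came from the cerebral cortex of 9 Sprague-Dawley rats aged 60 days, 3 females and 6 males, each on its own Illumina rat array. None had been irradiated: they served as age-matched controls for offspring of irradiated animals, a model of malformed cortex, and the irradiated arm was not analysed here. The labels give no treatment, genetic change or pooling, and describe each sample as 1 animal. Each title also carries 1 of 3 numbers of unstated meaning, each shared by 1 female and 2 males.

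Brain tissue draws most of its energy from glucose. Glycolysis in the cytosol ends in pyruvate, which lactate dehydrogenase can exchange with lactate, while the pyruvate dehydrogenase complex commits it to acetyl-CoA for the TCA cycle. Because the inner mitochondrial membrane does not let NADH through, neurons rely on the malate-aspartate shuttle to carry its electrons inside, and creatine kinase buffers ATP where demand changes fast.

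All levels are normalized log2 intensities, so a step of 1 is a doubling, and a level is compared between animals for the same gene only. Of the 33 genes, 32 exceeded the 25th percentile of the array on all 9 arrays. The exception was Hk2, a hexokinase that starts glycolysis. It passed on 8 arrays, at 5.87 to 6.06, close to background. Because these are measurements of whole tissue, fewer cells of a type and less RNA per cell cannot be told apart.

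Mean array intensity ran from 183.6 to 238.8. Female 2, male 2 and male 4 had the 3 dimmest arrays (183.6 to 185.4), apart from the other 6 (212.2 to 238.8). Among markers of cortical neurons, Nrgn, a postsynaptic protein of excitatory neurons, stood at 12.90 to 13.39, and Gad1, which makes GABA in interneurons, at 11.10 to 11.54. All 5 measured excitatory and 5 interneuron markers exceeded the 25th percentile on every array, but so did 13002 of 18531 tested probes, and 7 of 7 microglial and 7 of 7 meningeal markers. Some marker lists varied between animals. Among the 6 choroid plexus markers, Ttr (6.48 to 12.72) and Sostdc1 (5.82 to 8.53) had the widest ranges. Kcnj13 (5.99 to 6.22) had the narrowest. Choroid plexus markers had a mean deviation of 1.63 in male 3 and 0.75 in male 2, against -0.15 to 0.15 in the other 7 animals, and myelin markers stood at -1.01 in male 5 against -0.18 to 0.26 in the others. Deviations here are log2 differences from each gene's median over the 9 animals, averaged over the list.

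Spread among these untreated animals was examined because it sets the size of effect that could be seen in cortex. The median standard deviation (SD) between animals of 1 sex was 0.15 over the 33 genes, ranging from 0.05 for Idh3g to 0.31 for Pfkl. The median was 0.09 over all 18531 tested probes and 0.11 over the 13002 that passed on all arrays. Neither set was matched to the 33 genes for intensity. Among genes above background, Idh3g, a regulatory subunit of NAD-dependent isocitrate dehydrogenase (10.02 to 10.21), and Tpi1, triosephosphate isomerase (12.61 to 12.78), had the narrowest ranges. Hk2 is not ranked, since the offset compresses values near background. Gapdh, the glycolytic dehydrogenase often used as a reference transcript, ran from 12.08 in male 5 to 12.43 in female 2, a 1.27-fold range. Pfkl, the liver-type phosphofructokinase, had the widest range, from 7.06 in female 2 to 8.11 in male 5, or 2.08-fold. Citrate synthase (Cs), which opens the TCA cycle, was next, from 6.99 in male 6 to 7.77 in female 1, or 1.72-fold.

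**Figure D1:**
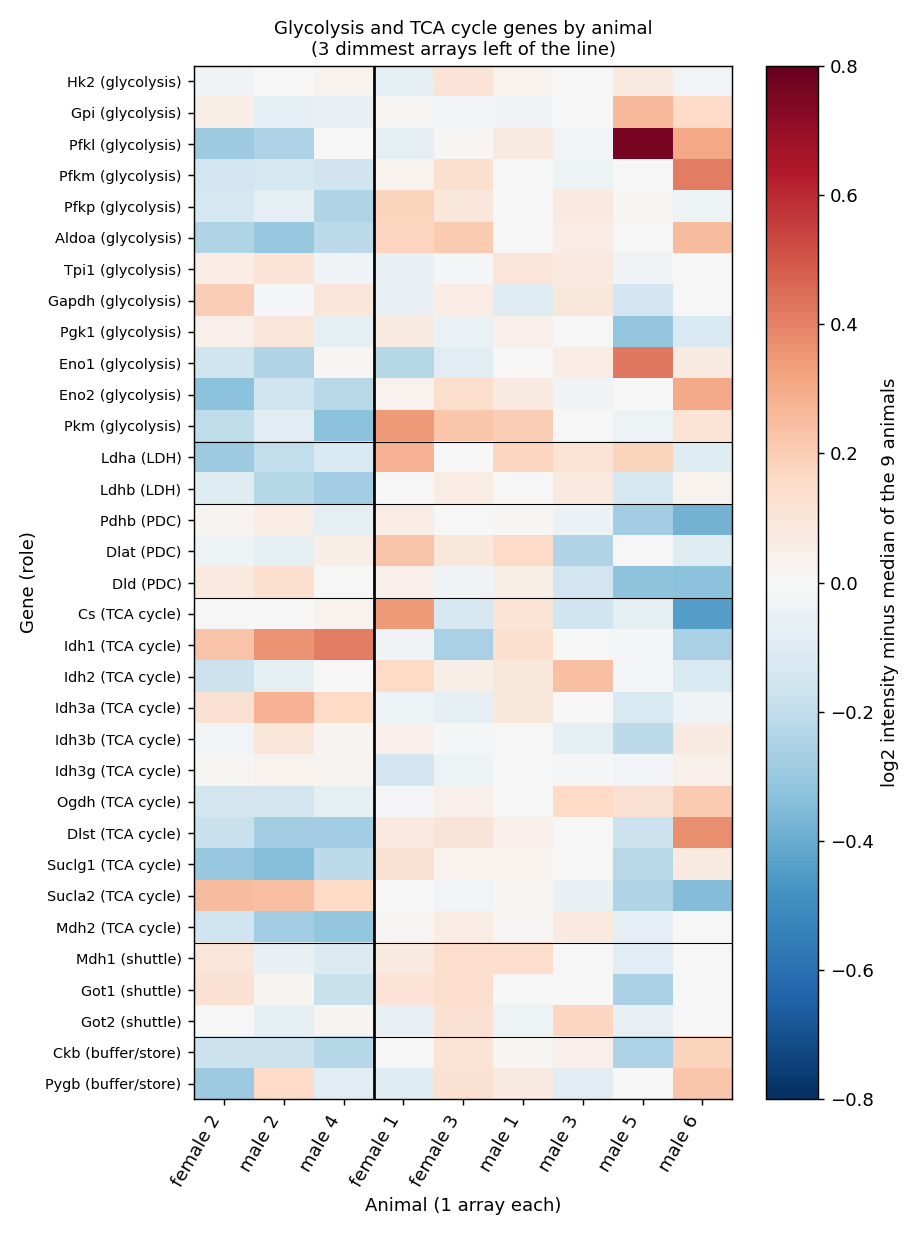
Log2 intensity minus the median of the 9 animals for 33 genes (rows, in pathway order, role in brackets) in 9 animals (columns), red above and blue below the median, with the 3 dimmest arrays left of the line. Pfkl in male 5 is the darkest red cell and Cs in male 6 the darkest blue one, and Aldoa, Eno2 and Mdh2 are blue on all 3 dim arrays.

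Glycolytic genes split in how they varied. Aldoa, the aldolase of muscle and brain that cleaves fructose bisphosphate, stood at 11.34, 11.28 and 11.37 in female 2, male 2 and male 4 and at 11.58 to 11.83 (median 11.70) in the other 6 animals. Eno2, the neuron-specific enolase, stood at 11.43, 11.60 and 11.54 in the same 3 animals and at 11.73 to 12.06 (median 11.81) in the others. Pkm, pyruvate kinase, stood at 9.37, 9.48 and 9.24 against 9.53 to 9.91 (median 9.72). In each case the dim-array animals lay below all the others without overlap, by 1.29-fold for Aldoa, 1.25-fold for Eno2 and 1.27-fold for Pkm between the means. The muscle-type and platelet-type phosphofructokinases Pfkm and Pfkp, which catalyse the committed step of glycolysis, also lay apart, by 1.18-fold and 1.15-fold.

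The other glycolytic genes did not lie apart on the dim arrays. Gpi, which converts glucose 6-phosphate to fructose 6-phosphate, was highest in males 5 and 6 (12.54 and 12.43, against 12.21 to 12.33 in the rest). Pfkl was highest in the same males, at 8.11 and 7.66, and 7.06 to 7.42 elsewhere. Eno1, the enolase found in most cell types, had its highest values there as well, 8.37 and 8.02, although male 3 at 8.01 was close. Pgk1, the X-linked phosphoglycerate kinase, had its lowest values in these 2 males, 11.10 and 11.29 against 11.33 to 11.51. Thus the animals that were high for Gpi, Pfkl and Eno1 were low for Pgk1. Myelin markers were lowest in male 5, at -1.01, and stood at -0.13 in male 6, and their part in these values was not tested.

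Lactate dehydrogenase is built from 2 kinds of subunit: Ldha, common in astrocytes and muscle, and Ldhb, common in neurons and heart. Ldha stood at 10.08, 10.17 and 10.25 on the dim arrays and at 10.27 to 10.65 (median 10.51) on the others, with a narrow margin. Ldhb stood at 11.43, 11.30 and 11.25 against 11.39 to 11.61 (median 11.55), and overlapped. Both subunits had the lower mean on the dim arrays. The overlap of Ldhb came from male 5 (11.39) and female 2 (11.43), and a difference between the subunits was not tested.

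TCA cycle genes lay on either side of the others on the dim arrays. Mdh2, the mitochondrial malate dehydrogenase, stood at 11.24, 11.12 and 11.09 in female 2, male 2 and male 4 and at 11.32 to 11.48 (median 11.41) in the others. Ogdh and Dlst, which encode the dehydrogenase and the succinyltransferase of the oxoglutarate dehydrogenase complex, lay below too, by 1.16-fold and 1.25-fold between the means. For Dlst the margin was narrow, 7.28 to 7.38 against 7.39 to 7.93.

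Idh1, Idh3a and Sucla2 lay above all other animals on the same arrays. Idh1 is the cytosolic, NADP-dependent isocitrate dehydrogenase, an enzyme outside the cycle itself. It stood at 8.57, 8.70 and 8.75 against 8.08 to 8.47 (median 8.32), a 1.33-fold difference. Idh3a, the catalytic subunit of the NAD-dependent enzyme, stood at 6.71, 6.87 and 6.75 against 6.47 to 6.68 (median 6.56). Sucla2, the ATP-forming beta subunit of succinyl-CoA ligase, stood at 10.26, 10.25 and 10.17 against 9.66 to 10.02 (median 9.97), or 1.25-fold higher. Suclg1, the alpha subunit of that ligase, had the lower mean there, 9.96 to 10.09 against 10.08 to 10.42, with male 5 (10.08) overlapping.

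In all, 9 of the 33 genes lay below the other 6 animals on the 3 dimmest arrays and 3 lay above. Over all tested probes, 7.01% lay below and 7.09% above, 14.1% together. Over the probes that passed on all arrays, as 32 of the 33 genes did, 9.19% lay below and 9.45% above, 18.6% together. The groups here are arrays ranked by brightness, not groups of the study, so no test was made. Other genes of the same pathways, such as succinate dehydrogenase subunits, transporters and pyruvate dehydrogenase kinases, were read from a list of 73 of which 54 were measured. Of these, 3 lay below and 5 above. All 9 of the lower genes had the lower mean with scaling to the 75th percentile as well. Then 13 genes lay below and 4 above, against 7.88% and 32.4% of all probes. With that scaling, the median over all probes itself moved up by 0.14 on the dim arrays. Without normalization, which leaves brightness in the values, 22 genes lay below and 0 above, Sucla2 differed by 0.00, and 22.6% of all probes lay below. The median difference was then -0.06 over all probes and -0.39 over the 33 genes. The probes compared were not matched to the 33 genes for intensity. The median intensity of an array was 47.6 to 54.0, and the offset compresses values near background.

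Cell markers were read on the same arrays. The lists also include 9 immediate early genes, which mark no cell type. Of 68 markers in 11 lists, 7 (10.3%) lay apart on the dim arrays, the immediate early gene Dusp1 among them. This is a smaller share than the 14.1% of all probes and the 18.6% of those that passed on all arrays. By mean deviation, the 3 oligodendrocyte precursor markers did not overlap, at -0.11 to -0.05 on the dim arrays and -0.03 to 0.15 on the others, although 0 of the 3 was apart by itself. The other 10 lists overlapped, among them 7 astrocyte markers (0.04 to 0.18 against -0.16 to 0.12), 6 endothelial and pericyte markers (-0.02 to 0.23 against -0.18 to 0.02), 9 myelin markers (-0.06 to 0.26 against -1.01 to 0.19) and 5 excitatory neuron markers (-0.09 to 0.02 against -0.07 to 0.08). The part of brightness, or of these cell types, in the values of the metabolic genes was not tested.

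The sexes were compared because sex is the labelled property in which the animals differ. Got1, the cytosolic aspartate aminotransferase of the malate-aspartate shuttle, stood at 11.56, 11.57 and 11.59 in the 3 females. In the 6 males it ran from 11.19 to 11.47, with a median of 11.45. The sexes did not overlap, and the means were 11.57 ± 0.01 (SD, n = 3) and 11.38 ± 0.12 (SD, n = 6), a male minus female difference of -0.19 ± 0.07 (SE, log2). Within the title numbers the difference was -0.10, -0.20 and -0.26. Its shared sign follows from the lack of overlap and adds nothing to it. Of 11 marker lists, which include a list of immediate early genes, every list but that of interneurons overlapped between the sexes. The 5 measured interneuron markers had mean deviations of 0.04 to 0.11 in females and -0.19 to 0.00 in males. These are means over the list, and separation was not read marker by marker. The lowest interneuron means were in male 5 (-0.19) and in males 1 and 4 (both -0.15), while Got1 was lowest in males 5 and 4. The part of interneurons in the Got1 values was not tested. The partner of Got1, Mdh1, the cytosolic malate dehydrogenase, stood at 12.45, 12.48 and 12.52 in females. In males it stood at 12.27 to 12.52 (median 12.35), a difference of -0.12 ± 0.06. Male 1, at 12.52, reached the highest female. Got2, the mitochondrial aminotransferase, differed by -0.02 ± 0.06.

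Neither difference passed the test over all probes. With limma, a linear model across all probes with moderated variances, 0 of the 33 genes had an adjusted p under 0.05, as did 0% of all probes. The adjusted p was 0.9999 for Got1. At an unadjusted p of 0.05, Got1 alone was called, against 2.37% of all probes. With the title number as a block, Eno1 and Pdhb were called as well, each with an adjusted p of 0.9999 in limma. Got1 was also the only gene of the 33 in which the sexes did not overlap, against 1.5% of all probes. The call of Got1 was lost without normalization (difference -0.11), with scaling to the 75th percentile (-0.16), without the 3 dimmest arrays (-0.18) and without female 3 (-0.18).

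Among the other genes of the 33, differences ran from -0.16 for Cs to 0.27 for Pfkl. Pfkl and Eno1 differed by more than Got1 in size, with larger standard errors. Of the 33, 14 had the higher male mean and 19 the lower, against 49.7% and 50.3% of all probes, and the median difference was -0.05, against -0.0004 over all probes. All 3 measured subunits of the pyruvate dehydrogenase complex had the lower male mean: Pdhb, of the catalytic component, differed by -0.15 ± 0.09 (SE), Dlat, the acetyltransferase, by -0.13 ± 0.09 and Dld, the lipoamide dehydrogenase, by -0.13 ± 0.10. Both Pdhb and Dld were lowest in males 5 and 6. Dld in males 1 and 2 (9.10 and 9.18) was above the female mean of 9.08. Among glycolytic genes, Eno1 differed by 0.21 ± 0.11 and Pfkl by 0.27 ± 0.18, and 7 of 12 had the higher male mean. In the group of TCA cycle genes, which here includes the cytosolic Idh1, 5 of 11 had the higher male mean, with Cs at -0.16 ± 0.13 and Idh1 at 0.12 ± 0.15. The glycogen phosphorylase Pygb differed by 0.13 ± 0.10 and the brain creatine kinase Ckb by -0.05 ± 0.10. Among the other 54 pathway genes, 22 had the higher male mean and 1 had an unadjusted p under 0.05. That gene was Pdp1, the phosphatase that reactivates pyruvate dehydrogenase, at 9.30 ± 0.14 in females and 8.90 ± 0.24 in males. Next by p were Gpd1, glycerol 3-phosphate dehydrogenase (-0.68 ± 0.32), and G6pc3, a glucose 6-phosphatase (0.15 ± 0.08).

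**Figure D2:**
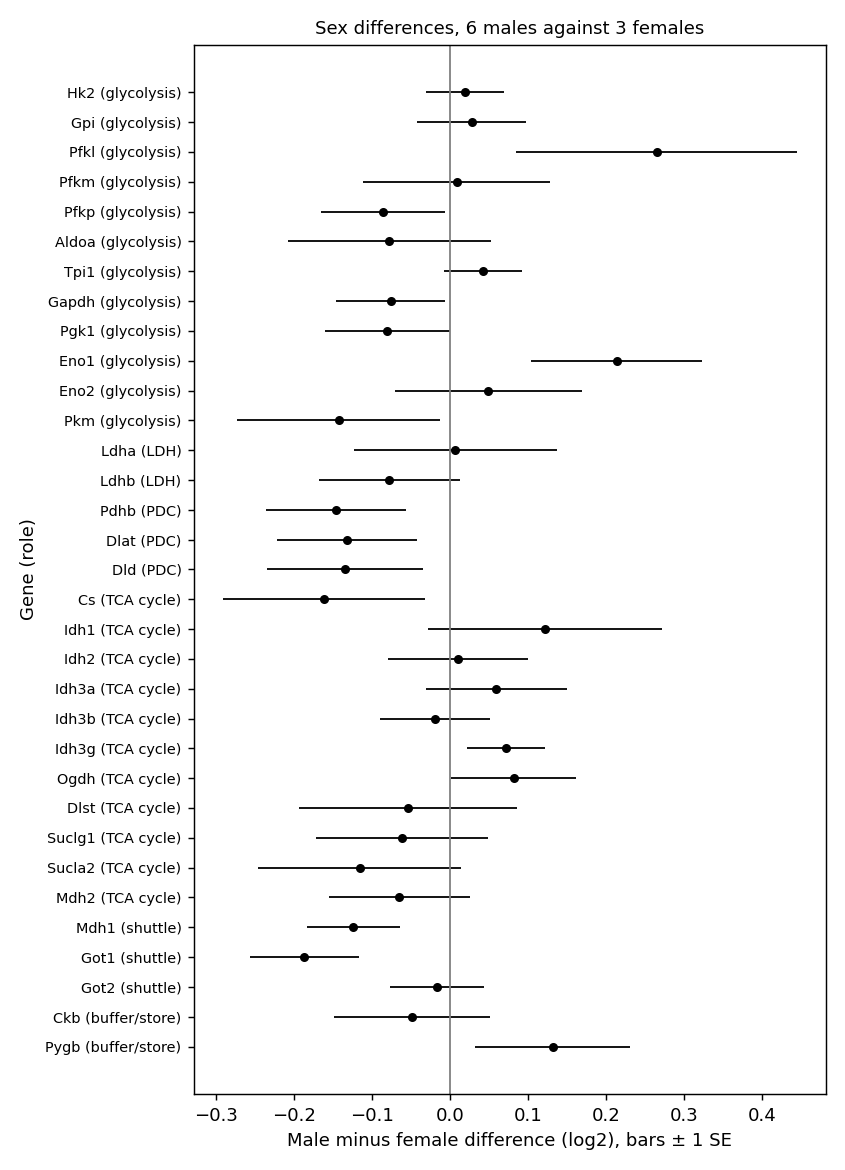
Male minus female difference in log2 intensity for 33 genes in pathway order, with bars of 1 SE from limma (6 males, 3 females). Got1 lies at -0.19, and Pfkl, at 0.27, has the longest bar.

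The title numbers were compared because they may mark a litter, cage or batch, which the labels do not say. Averages (± SD, n = 3) follow the numbers in ascending order. Dld averaged 9.12 ± 0.05, 9.03 ± 0.12 and 8.82 ± 0.17, and Pdhb 10.41 ± 0.03, 10.32 ± 0.05 and 10.14 ± 0.20. Behind the low averages of the highest number were males 5 and 6, with 8.73 and 8.72 for Dld and 10.08 and 9.98 for Pdhb. Female 3, of the same number, stood at 9.02 and 10.36 and lay within the range of the other numbers. Dlat did not show this order, at 7.78 ± 0.16, 7.60 ± 0.15 and 7.68 ± 0.10.

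Cs averaged 7.58 ± 0.18, 7.39 ± 0.10 and 7.22 ± 0.20. Idh1 averaged 8.50 ± 0.20, 8.55 ± 0.21 and 8.16 ± 0.14, Sucla2 10.09 ± 0.13, 10.12 ± 0.16 and 9.81 ± 0.17, and Pgk1 11.48 ± 0.03, 11.39 ± 0.06 and 11.25 ± 0.13. These 4 and the 2 pyruvate dehydrogenase subunits had their lowest mean at the highest number.

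A further 4 genes had their highest mean there instead: Pfkl (7.26 ± 0.16, 7.24 ± 0.16 and 7.71 ± 0.38), Pfkm (9.97 ± 0.09, 9.89 ± 0.07 and 10.19 ± 0.21), Eno2 (11.74 ± 0.12, 11.57 ± 0.15 and 11.91 ± 0.15) and Pygb (10.15 ± 0.13, 9.95 ± 0.12 and 10.22 ± 0.11). Gapdh peaked at the middle number, at 12.36 ± 0.06 against 12.17 ± 0.04 and 12.20 ± 0.11, and Pkm was lowest there, at 9.39 ± 0.17 against 9.72 ± 0.22 and 9.67 ± 0.13. Genes near the same step thus differed in direction, as with Pgk1 and Eno2.

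These 12 genes had an unadjusted p under 0.05 in a moderated F test (limma) that also fitted sex, 12 of 33 against 9.56% of all probes. Among probes that passed on all arrays the share was 12.7%. With adjustment over all probes 0 passed, and the smallest adjusted p was 0.45. Brightness is not balanced over the numbers, since female 2 and male 4 share the middle number, male 2 has the lowest, and no dim array has the highest. Without the 3 dim arrays 3 genes had an unadjusted p under 0.05 (Dlat, Cs and Idh2, against 5.5% of probes), with male 3 alone left for the middle number and assumed to vary like the others. With brightness as a covariate, a setting added after the data were seen, 6 did so: Pgk1, Pkm, Pdhb, Dld, Cs and Pygb, against 8.18% of probes. Of the other 54 pathway genes, 3 had an unadjusted p under 0.05 and 0 an adjusted one: Hif1a, the oxygen-sensing factor that activates glycolytic genes (8.04, 7.83 and 7.78), Pdk2, a kinase that inactivates pyruvate dehydrogenase (8.83, 9.08 and 8.88), and Me3, a mitochondrial malic enzyme (lowest at the middle number, 7.84, and highest at the highest, 8.08).

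**Figure D3:**
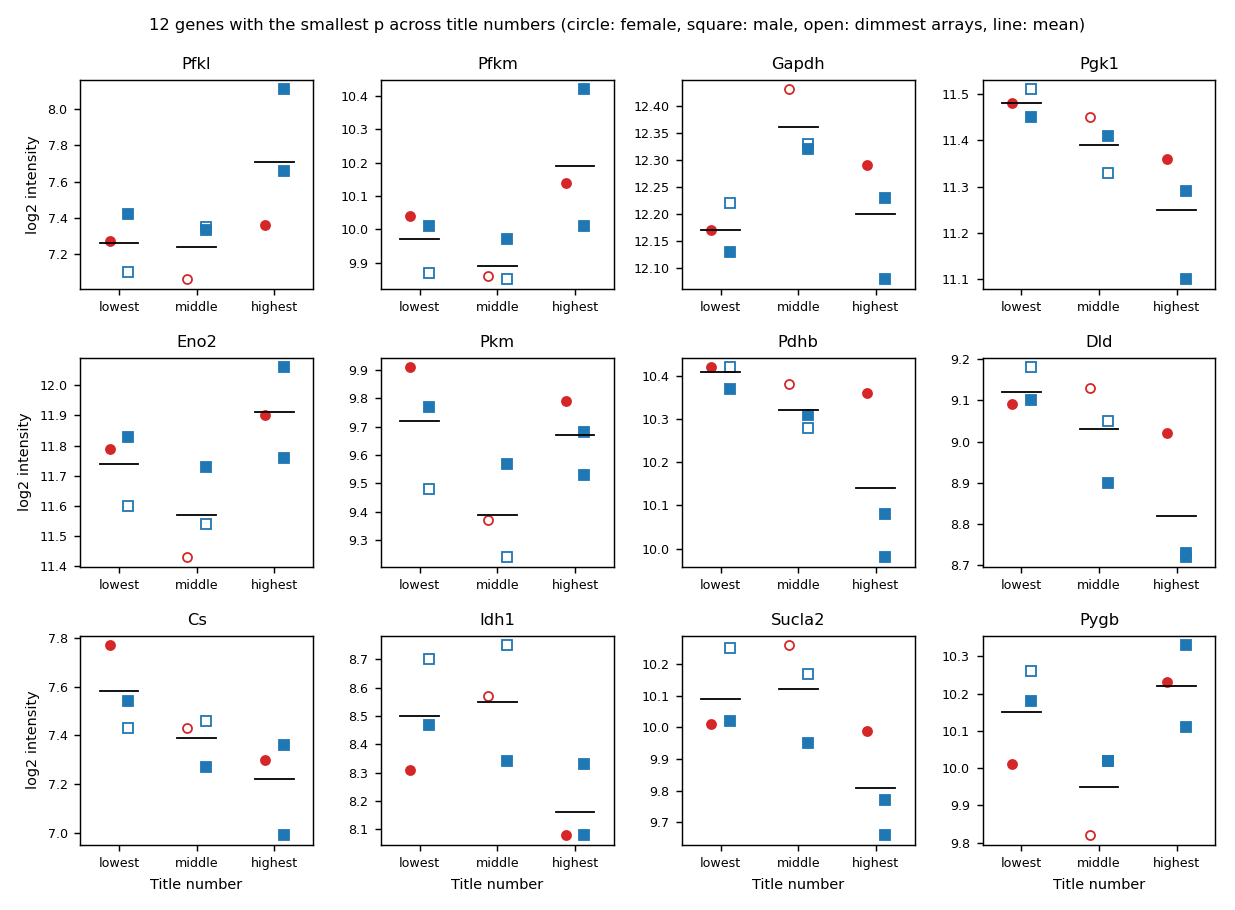
Log2 intensity of the 12 genes with an unadjusted p under 0.05 across title numbers, per animal (circle, female; square, male; open symbol, 1 of the 3 dimmest arrays), with the mean of each number as a line. Pdhb and Dld are lowest in the 2 males of the highest number, and the female of that number lies above them.

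Covariation over the 9 animals was read from all 528 pairs of the 33 genes. The median Pearson correlation was 0.07, against 0.00 over all pairs of tested genes, after quantile normalization. It was 0.70 without normalization, which leaves brightness in the values. With scaling to the 75th percentile, which matches arrays at that percentile only, it was 0.29. Strong correlations of both signs were present. In 30 pairs (5.68%) r was above 0.8 and in 19 (3.6%) it was below -0.8, against 1.24% and 1.2% of all gene pairs. These shares describe pairs that share genes and arrays, and all genes were not matched to the 33 for intensity. When each gene was taken as its deviation from the mean of the dim or of the other arrays, they were 3.41% and 1.89%, against 1.2% and 1.15% of all pairs. Within the 6 brighter arrays they were 6.25% and 5.49%, against 3.35% and 3.27%. Among the 66 pairs of glycolytic genes the median r was 0.10, and among the 55 pairs of TCA cycle genes it was -0.02.

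**Figure D4:**
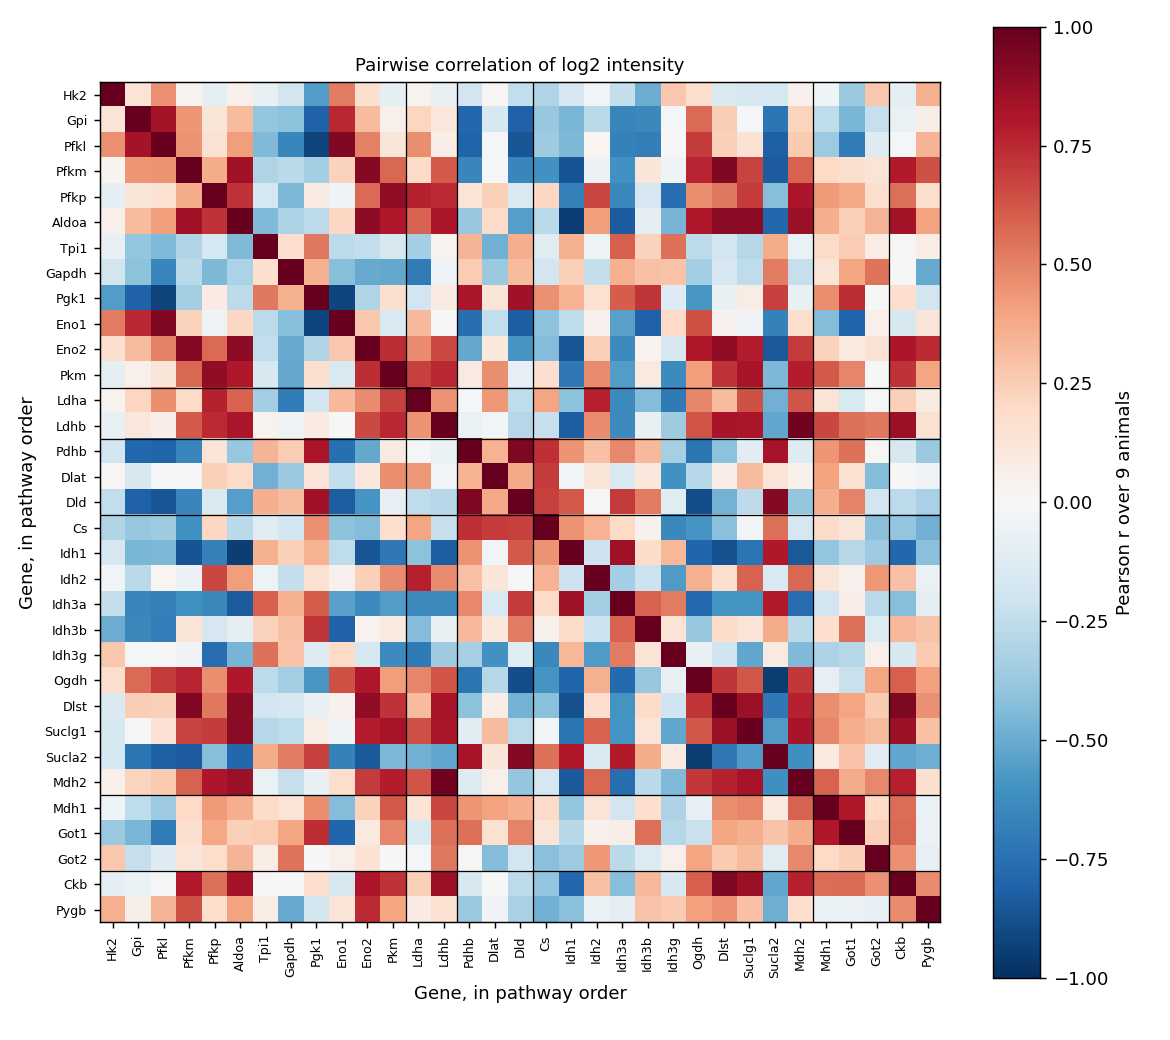
Pearson correlation of log2 intensity over 9 animals for every pair of 33 genes in pathway order, with lines between roles (blue -1, red 1). Aldoa, Eno2, Dlst, Suclg1 and Mdh2 form red cells with each other, and Idh1 and Sucla2 form blue cells with them.

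Pairs of genes whose products act together or replace each other were taken from a list of 30, of which 23 were measured. The pair with the smallest p was Mdh1 and Got1, the cytosolic arm of the malate-aspartate shuttle. Both were lowest in males 4 and 5, at 12.27 and 12.29 for Mdh1 and 11.27 and 11.19 for Got1, and both were highest in female 3. Pearson's r was 0.80 (exact two-sided permutation p = 0.0063, adjusted over 23 pairs 0.14) and Spearman's rho was 0.71 (exact permutation p = 0.037, adjusted 0.23). Without the 2 animals farthest from the Mdh1 median, female 3 and male 1, r was 0.88, and within the 6 brighter arrays it was 0.80 (exact permutation p = 0.033, adjusted 0.26). On deviations from the sex means it was 0.64. There, Eno2 with Pkm (0.84) and Ogdh with Dlst (0.80) had a higher r. In the mitochondrial arm, Mdh2 and Got2 had r = 0.48 over 9 animals (exact permutation p = 0.18) and 0.84 within the 6 brighter arrays (exact permutation p = 0.021, adjusted 0.24).

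The RefSeq promoters of Mdh1 and Got1 are shown because this pair kept its correlation with and without the dim arrays, and those of Ldha and Ldhb because the 2 subunits share a reaction. Each runs from 250 bases before to 50 after the annotated start, 5′ to 3′ on the gene's strand, in rat build GRCr8. Capitals mark ACGTG and GCGTG, the cores of hypoxia response elements, and GGGCGG, the Sp1 box, each on either strand. They lie at chr14:99847178-99847477 (minus strand) for Mdh1, chr1:252329822-252330121 (minus) for Got1, chr1:106507842-106508141 (plus) for Ldha and chr4:177177359-177177658 (minus) for Ldhb.
Mdh1: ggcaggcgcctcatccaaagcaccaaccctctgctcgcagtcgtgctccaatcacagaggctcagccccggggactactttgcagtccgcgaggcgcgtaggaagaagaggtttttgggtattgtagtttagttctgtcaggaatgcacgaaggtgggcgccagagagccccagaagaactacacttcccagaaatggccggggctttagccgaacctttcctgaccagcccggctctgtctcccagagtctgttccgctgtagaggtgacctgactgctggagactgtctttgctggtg
Got1: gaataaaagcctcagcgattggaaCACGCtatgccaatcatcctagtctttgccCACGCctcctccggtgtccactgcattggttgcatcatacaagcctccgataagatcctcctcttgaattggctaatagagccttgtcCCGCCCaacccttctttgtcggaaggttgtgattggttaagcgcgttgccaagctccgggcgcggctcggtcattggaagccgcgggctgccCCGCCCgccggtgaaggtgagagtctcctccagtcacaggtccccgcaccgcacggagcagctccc
Ldha: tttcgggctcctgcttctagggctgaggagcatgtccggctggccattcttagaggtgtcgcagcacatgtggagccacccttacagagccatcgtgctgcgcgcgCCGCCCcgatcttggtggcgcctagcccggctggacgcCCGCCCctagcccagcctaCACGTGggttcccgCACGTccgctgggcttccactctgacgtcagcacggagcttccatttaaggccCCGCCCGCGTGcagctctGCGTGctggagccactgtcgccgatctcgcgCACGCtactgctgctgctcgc
Ldhb: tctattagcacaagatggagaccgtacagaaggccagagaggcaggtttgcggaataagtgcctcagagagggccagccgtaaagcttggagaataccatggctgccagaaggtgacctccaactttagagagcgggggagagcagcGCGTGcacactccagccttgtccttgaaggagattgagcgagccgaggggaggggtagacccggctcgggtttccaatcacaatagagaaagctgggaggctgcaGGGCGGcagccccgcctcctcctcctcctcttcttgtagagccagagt

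The Ldha window held 3 ACGTG, 3 GCGTG and 3 GGGCGG matches, with 1 CACGTG, a palindrome that holds ACGTG on both strands. Ldhb held 1 GCGTG and 1 GGGCGG match and no ACGTG. Got1 held 2 GCGTG and 2 GGGCGG matches, and Mdh1 held none of the 3. Promoters were matched for 31 of the 33 genes. ACGTG was found in 10 of them (32.3%, against 19.7% of 27457 rat promoters), GCGTG in 14 (45.2% against 31.1%) and GGGCGG in 18 (58.1% against 34.9%). TGCGCA, the core of NRF-1 sites, was found in 7 (22.6% against 7.68%), CACGTG in 3 (9.68% against 6.65%) and AAGGTCA, a nuclear receptor half-site, in 1 (3.23% against 4.37%). Motif matches are a description of letters in this window.

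Of the 23 pairs, 3 had an exact permutation p under 0.05 before adjustment and 0 after it. The other 2 were Eno2 with Pkm, and Ogdh with Dlst. Their values fell into separate clusters by array brightness, so r is given within the 6 brighter arrays: 0.20 for Eno2 and Pkm (exact permutation p = 0.71, rho = 0.43) and 0.31 for Ogdh and Dlst (exact permutation p = 0.60, rho = 0.09). The 2 succinyl-CoA ligase subunits Suclg1 and Sucla2 had r = 0.36 within those arrays (exact permutation p = 0.50), while over all 9 animals the dim arrays put 1 low and the other high. Eno1 and Pkm, consecutive enzymes, had r = -0.15 over 9 animals and -0.89 within the 6 brighter arrays (exact permutation p = 0.014, adjusted 0.24, rho = -0.94).

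The listed pairs of subunits of the same complex did not pass either. For the 3 subunits of NAD-dependent isocitrate dehydrogenase, r was 0.59 between Idh3a and Idh3b (exact permutation p = 0.089, and 0.47 within the 6 brighter arrays), 0.52 between Idh3a and Idh3g (exact permutation p = 0.15) and 0.13 between Idh3b and Idh3g (exact permutation p = 0.68). In the pyruvate dehydrogenase complex, Dlat had r = 0.35 with Pdhb (exact permutation p = 0.35) and 0.38 with Dld (exact permutation p = 0.31). The remaining pair of that complex, Pdhb and Dld, was not on the list and was not tested. As a description, chosen after its value was seen, its r was 0.93 over the 9 animals and 0.95 within the 6 brighter arrays, with both genes lowest in males 5 and 6. The isoenzymes Ldha and Ldhb had r = 0.45 (exact permutation p = 0.22), and -0.43 within the 6 brighter arrays (exact permutation p = 0.42). Adjusted over the 23 pairs, the p-values of these listed pairs were 0.43 to 0.70 over 9 animals.

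**Figure D5:**
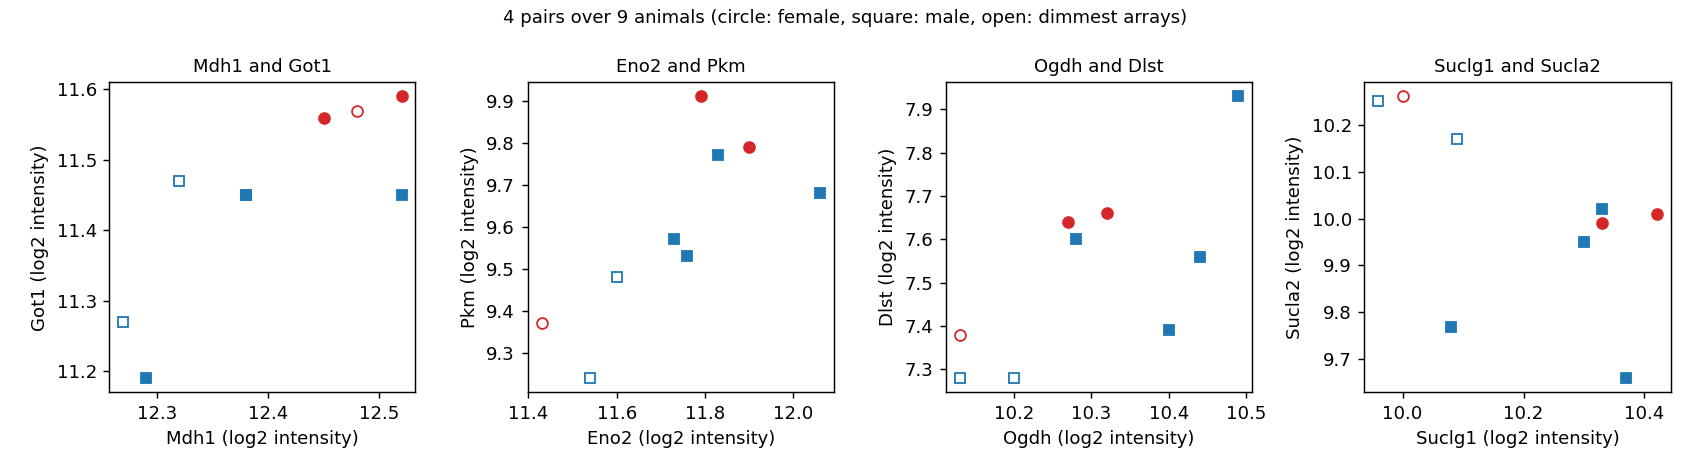
Log2 intensity of 4 pairs of genes in 9 animals (circle, female; square, male; open symbol, 1 of the 3 dimmest arrays). Mdh1 and Got1 are low together in males 4 and 5, while in the other 3 pairs the open symbols gather at 1 end of the vertical axis.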

How the data were processed

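Labelled cRNA from 9 cortex samples was hybridised to Illumina rat arrays, per the labels' protocols. The authors deposited 1 linear probe intensity per probe and array for 22517 probes, neither normalized between arrays nor carrying detection p-values, as the values show. The authors also deposited a series table of log2 values for 15912 probes. From its values it is quantile-normalized and not centred by gene. Its columns correlated at 0.99996 or above with the probe intensities after log2 and quantile normalization alone. The levels given in this report were also background-corrected with an offset. For the scanner software, nothing was given in the sources used here.

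Intensities were background-corrected (normexp, offset 50), log2-transformed and quantile-normalized in limma 3.58.1 (R 4.3.3). The offset understates changes of dim probes. The 18531 probes above the 25th percentile of their array on at least 3 arrays were tested, with Benjamini-Hochberg adjustment over all of them. Symbols came from the platform annotation, of which 10662 of 10687 named probes were updated through a RefSeq table (GRCr8). Animals are numbered within sex in record order.

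All genes of the list were named, with the 3 other pathway genes of smallest p in each test. These lists, the pairs and the members were chosen with earlier results of these data known. The promoters shown, and the genes described by male 5 and male 6, were chosen after their values were seen. The labels do not say whether the samples were processed independently beyond being 1 animal each, so p-values measure the spread between these samples, and the number of arrays limits precision.

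The fits were tested on simulated data. Correlations were tested by exact enumeration of all orders of the animals. Alternatives were a floor of 64, no normalization, 75th percentile scaling, the deposited table, other filters, array weights, an intensity trend, the title number as a block, Spearman correlation, residuals, and leaving out animals.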

Additional observations from a re-analysis of the deposited data

Results flagged for a closer look

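Pfkm in male 6 stood at 10.42, against 9.85 to 10.01 in the other 5 males, and its gap to the nearest male was 0.71 of the males' range. It was the only gene of the 33 for which 1 male stood this far from the others. The limit for this flag is a gap that chance alone gives in about 1 of 20 groups, and all 33 genes were screened. A share over all probes was not computed.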

How the results depend on the processing

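Counts at an adjusted p of 0.05 stayed at 0 between the sexes and across title numbers under every alternative run, and the number of genes with the higher male mean stayed within 1.5 times of 14 (10 to 17 when single animals were left out). At an unadjusted p of 0.05, 0 genes differed between the sexes without normalization or with 75th percentile scaling, 2 without the 3 dimmest arrays (Eno1 and Pkm), 3 with the title number as a block (Eno1, Pdhb and Got1), and 1 to 2 when single animals were left out. Shares of all probes were not computed for these sex counts. Across title numbers, at the same unadjusted p, the shares of all probes are given in brackets. The 12 genes (9.56%) became 5 with a floor of 64 (4.95%) and 3 without normalization (6.04%). They became 5 with an intensity trend (9.47%) and 6 with brightness as a covariate (8.18%). When single animals were left out they were 5 to 13, the highest without male 3 (13.6%). The count was 5 without female 2 (6.27%) or male 6 (7.25%). It was 7 without male 1 (7.57%), male 4 (7.04%) or male 5 (8.13%). The median pairwise correlation was 0.70 without normalization and 0.29 with 75th percentile scaling, and 0.05 to 0.10 when single animals were left out. The median SD was 0.24, 0.19 and 0.12 without normalization, with scaling and without the dim arrays, and 0.14 to 0.16 when single animals were left out. Pairs past the adjusted threshold were 11 without normalization, 1 with scaling (Mdh1 and Got1) and 2 on deviations within brightness (Mdh1 and Got1, Eno1 and Pkm), an added setting in which the test is approximate, and 0 when single animals were left out. At an unadjusted p of 0.05, 14 and 6 pairs were called without normalization and with scaling. On deviations from the sex means 2 pairs were called, and 1 to 6 when single animals were left out. Genes apart on the dim arrays became 22 lower and 0 higher without normalization, and 13 lower and 4 higher with 75th percentile scaling. The cause of these changes was not tested. With a floor of 64, Hk2 was constant and left out of correlations. Of the 33 sex differences, 22 kept their sign in all alternatives. The title number, shared by 1 female and 2 males, was the only block fitted. The replicate numbers follow record order and pair no animals.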
